A study of Homo sapiens with 42 samples.

Results

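The genes described here are the nuclear transfer RNA (tRNA) genes that read codons for the aromatic amino acids tyrosine (Tyr), phenylalanine (Phe) and tryptophan (Trp). They were the rows of the deposited count table annotated as tRNA, off the mitochondrial chromosome, at most 500 bases long and named tRNA-Tyr, tRNA-Phe or tRNA-Trp, whatever their counts. This rule gave 33 of the 756 nuclear tRNA rows and of the 175946 rows in all. Copies of 1 anticodon can share reads, so they were summed by anticodon: 14 copies of Tyr-GTA, 11 of Phe-GAA, 7 of Trp-CCA and 1 of Tyr-ATA. The single Tyr-ATA row held 3 counts over all libraries and was not tested.

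Transfer RNAs carry amino acids to the ribosome, where the 3 bases of the anticodon pair with the codon of the messenger RNA. Their genes are copied by RNA polymerase III (Pol III) from promoter elements inside the gene, the A and B boxes, and end at a run of T. Nuclear Tyr genes carry an intron that is spliced out of the precursor, and a CCA end is added to every tRNA after transcription. POLR3G and POLR3GL are alternative subunits of Pol III.

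The study sequenced small RNA from THP-1, a human monocytic leukaemia line, and HEK293T, a human embryonic kidney line. Its title names knockout of POLR3G and POLR3GL in THP-1 and knockdown of POLR3G in HEK293T. Libraries of 5 groups were used, with 3 libraries in each group and arm, 30 in all. The THP-1 groups are labelled A4, A7, E4 and G8, and the labels give neither the subunit targeted in each nor whether each is 1 clone. The fifth group, labelled mock, is HEK293T transfected with a control antisense oligonucleotide at 200 nM. Each group was sequenced in 2 arms, without (minus PNK) and with (plus PNK) treatment of the RNA by a phosphatase and polynucleotide kinase (PNK), which changes RNA ends and so which fragments can be ligated to adapters. An unedited THP-1 group and the POLR3G oligonucleotide group are in the labels, and these 12 samples were not analysed here. Comparisons among A4, A7, E4 and G8 are therefore comparisons of edited groups with each other, and those with mock compare cell lines as well.

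The libraries held 9994398 to 13604860 kept counts in the minus PNK arm and 6493454 to 9247059 in the plus PNK arm. Aromatic tRNAs took 1829 to 4509 of these counts per library minus PNK and 949 to 4710 plus PNK. Nothing in the labels says that the libraries of a group came from separate cultures, so p-values measure the spread between these libraries only. In bulk RNA, fewer cells of a type and less RNA per cell cannot be told apart. G8 libraries 1 and 2 stood apart minus PNK, with 1.38% and 1.43% of their counts in microRNA (miRNA) rows against 7.96% to 16.1% in the other 13 libraries. The same 2 libraries were lowest plus PNK, at 0.121% and 0.107% against at least 0.244% in the other 13. The mock libraries went against their label in a check of cell type markers. A list of 5 haematopoietic miRNAs (MIR142, MIR223, MIR155, MIR150, MIR146A) summed to 5102 to 7704 CPM (counts relative to the kept total of the library) in mock minus PNK, with MIR150 alone at 0, and to 5233 to 7234 in A4, but plus PNK to 76.4 to 93.3 in mock and 122 to 226 in A4. The epithelial or kidney list (MIR200B, MIR200C, MIR141, MIR429, MIR205) summed to 24.8 to 35.2 CPM in mock minus PNK, with MIR205 at 0. This was above A4 (17.3 to 23.2) and G8 (3.08 to 23.7) but below A7 (56.9 to 73.1) and E4 (46.1 to 47.4). Plus PNK it summed to 0 to 0.616 in mock, below A7 (2.03 to 2.93) and E4 (1.28 to 2.02). There mock overlapped A4 (0.588 to 1.02) and G8 (0.152 to 0.788). The group is called mock below for its label.

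Sequences of 2 genes show what the counts refer to, the Phe and the Trp copy with the highest mean count. Both come from reference sequence of the GRCh38 assembly (a RefSeq promoter window for Phe and a GENCODE transcript for Trp), written 5′ to 3′ on the strand of the gene with the anticodon in capitals.
TRF-GAA1-5: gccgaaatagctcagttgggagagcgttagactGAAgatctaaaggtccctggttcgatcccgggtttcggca
TRW-CCA1-1: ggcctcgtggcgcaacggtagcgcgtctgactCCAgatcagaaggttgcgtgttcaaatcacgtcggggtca
TRF-GAA1-5 lies on the minus strand at chr13:94549650-94549722, within the promoter window of the RNA gene LOC124903191, and has its anticodon at bases 34 to 36. The letters GGTTCGA, which open the B box of many tRNA genes, lie at bases 52 to 58, and a run of TTTT starts after 5 further bases past the end of the gene. TRW-CCA1-1 lies on the minus strand at chr17:8220869-8220940 within an exon of the long noncoding RNA LINC00324, with its anticodon at bases 33 to 35 and TTTT after 12 further bases. GGTTCGA is not in the TRW-CCA1-1 gene. It was on either strand of 302 of 35116 RefSeq promoter windows of 300 bases (0.86%). Neither gene ends in CCA.

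Tyr-GTA made up most of the aromatic tRNA signal in both arms. Per base of gene, Tyr-GTA took a median of 82.2% of the aromatic counts minus PNK (77.8% to 87.2%) and 77.9% plus PNK (67.9% to 82.7%). Phe-GAA took 13.5% (9.43% to 17.8%) and 14.2% (10.1% to 21.2%). Trp-CCA took 3.90% (1.60% to 5.49%) and 7.47% (5.08% to 12.6%). The order was the same in all 30 libraries, with no overlap between the ranges of the 3 anticodons except that the Phe and Trp ranges met plus PNK. In CPM, here scaled within an arm by TMM factors, Tyr-GTA averaged 227 minus PNK and 301 plus PNK and ranked 16 among 48 anticodon sums in each arm. Phe-GAA averaged 29.6 and 42.3 CPM and ranked 39 in both. Trp-CCA averaged 7.96 and 22.3 CPM, with rank 46 minus PNK and 41 plus PNK.

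**Figure D1:**
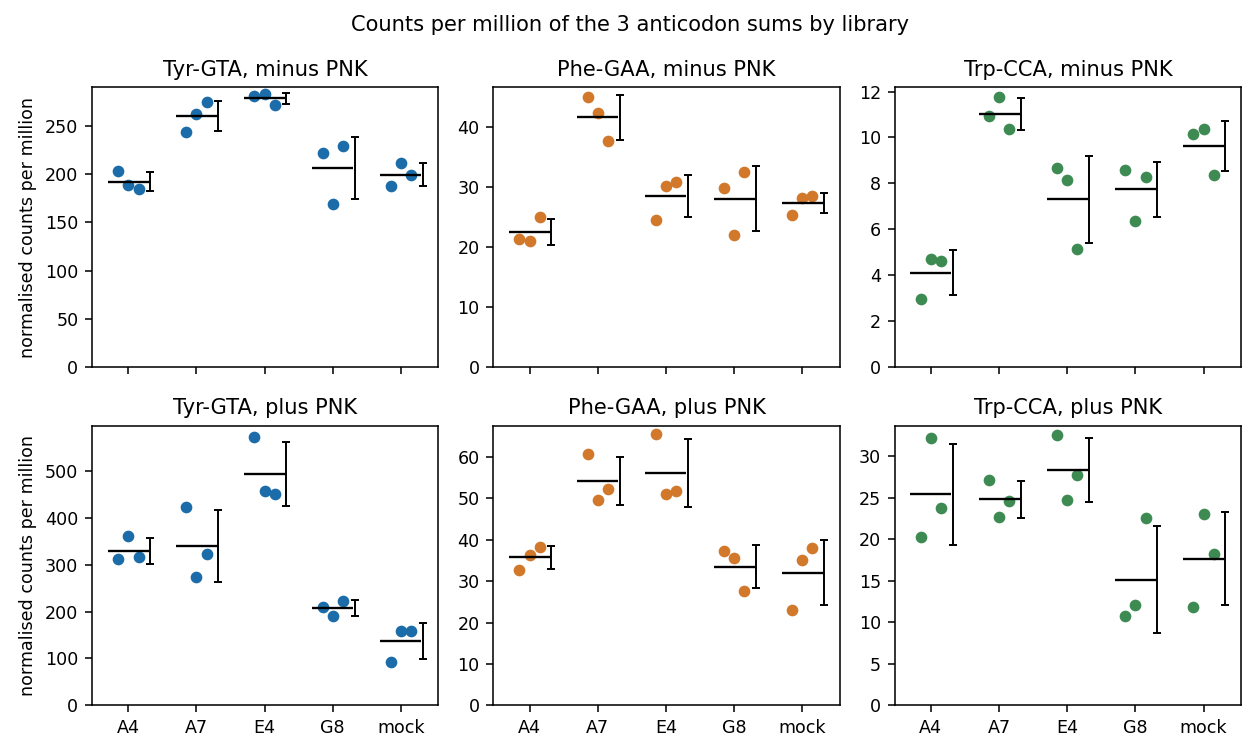
CPM of the Tyr-GTA, Phe-GAA and Trp-CCA sums in each library of A4, A7, E4, G8 and mock, in the minus and the plus PNK arm. Points are libraries and lines are group means of 3 libraries: Tyr-GTA was highest in E4 plus PNK (mean 493) and lowest in mock plus PNK (mean 136).

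The clearest difference among the THP-1 groups was in the plus PNK arm, where all 3 anticodons were higher in E4 than in G8. Tyr-GTA stood at 451, 457 and 573 CPM in the E4 libraries and at 190, 209 and 223 CPM in the G8 libraries. Every E4 library was at least 451 CPM and no G8 library passed 223 CPM, so the groups did not overlap. The log2 difference was 1.33 (SE 0.212, n = 3 and 3, adjusted p = 0.00127 by edgeR's quasi-likelihood test). Phe-GAA stood at 51.2, 51.8 and 65.5 CPM in E4 and at 27.6, 35.6 and 37.2 CPM in G8, again with no overlap (log2 difference 0.82, SE 0.199, adjusted p = 0.0152). Trp-CCA stood at 24.7, 27.7 and 32.5 CPM in E4 and at 10.8, 12.1 and 22.5 CPM in G8. The Trp-CCA groups did not overlap either, although the highest G8 library came near the lowest E4 library (log2 difference 1.00, SE 0.241, adjusted p = 0.0146). All 3 sums were thus called higher in E4 in a comparison that called 10.9% of the 8196 features tested.

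How firmly this holds depended on the anticodon. The Tyr-GTA and Phe-GAA calls were kept on leaving out any 1 of the 6 libraries. The Trp-CCA call was lost without E4 library 1 (log2 0.95, adjusted p = 0.0563), G8 library 1 (0.83, 0.0688) or G8 library 2 (0.89, 0.0709), and with G8 libraries 1 and 2 both left out it was 0.55 (adjusted p = 0.338). All of these directions are relative to TMM factors over all features. With factors from miRNA rows alone, which move this comparison by -0.97 on the log2 scale, Tyr-GTA was 0.36 (adjusted p = 0.333), Trp-CCA 0.11 (0.765) and Phe-GAA turned to -0.19 (0.600). In the minus PNK arm the same comparison called none of the 3 sums (19.8% of features called), with Tyr-GTA at 0.39, Phe-GAA at -0.01 and Trp-CCA at -0.12. None of the 3 had an unadjusted p under 0.05 there, and DESeq2 called none.

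Over the 4 THP-1 groups jointly, edgeR's quasi-likelihood test called all 3 sums plus PNK: Tyr-GTA (adjusted p = 0.00255), Phe-GAA (0.00982) and Trp-CCA (0.0316), in a test that called 22% of 8196 features. With miRNA factors none of the 3 was called (adjusted p = 0.345, 0.194 and 0.899). The Trp-CCA call was also lost with library totals (0.114), without E4 library 1 (0.0649), G8 library 1 (0.139) or G8 library 2 (0.138), and without those G8 libraries together (0.464). The medians ran in the order E4, A7, A4 and G8 for each anticodon except that Phe-GAA was 52.2 CPM in A7 and 51.8 CPM in E4. Tyr-GTA was spread widely in A7, with 273, 322 and 424 CPM, which spans the A4 values of 312, 316 and 361 CPM. Neither Tyr-GTA (log2 -0.57 for A7 against E4, SE 0.209, adjusted p = 0.361) nor the other 2 sums differed between A7 and E4 by edgeR at the threshold, where 0.0244% of features were called. There 1 of the 3 sums had an unadjusted p under 0.05 and DESeq2 called none.

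**Figure D2:**
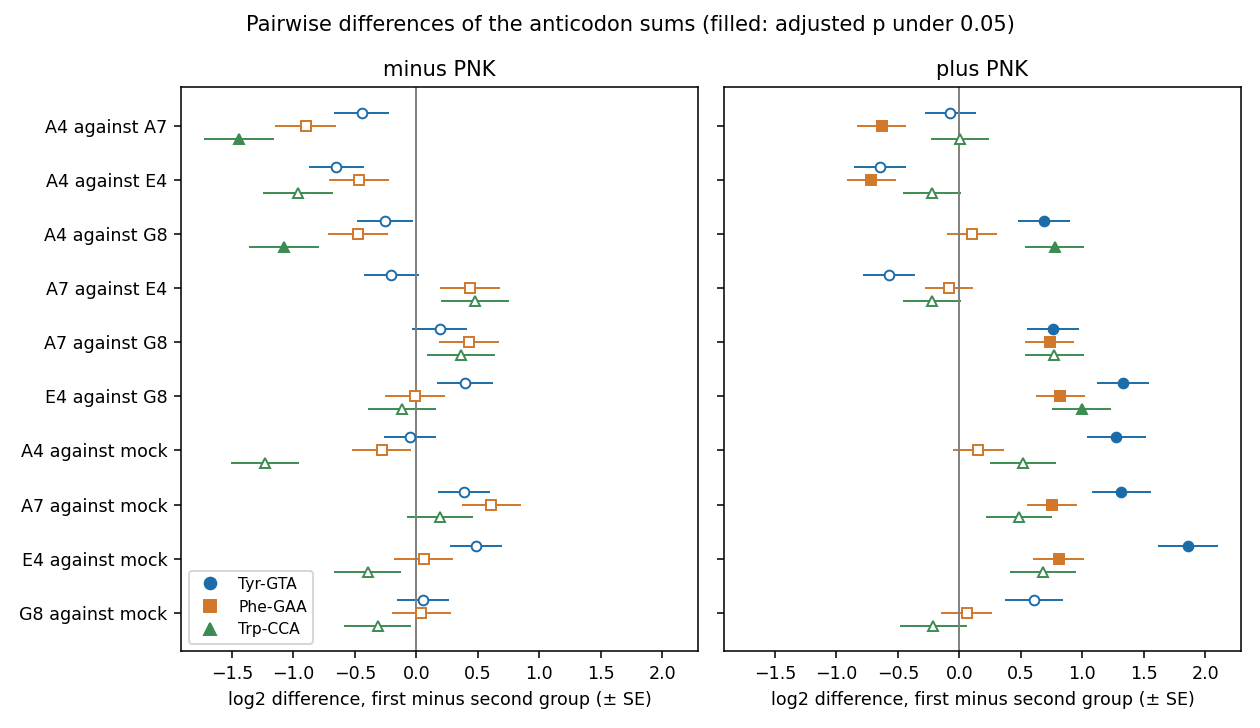
Log2 differences of the Tyr-GTA, Phe-GAA and Trp-CCA sums for the 6 pairs of THP-1 groups and for each group against mock, in each PNK arm, with standard errors. Filled points passed the adjusted p threshold of 0.05 in edgeR: all 3 sums did for E4 against G8 plus PNK (1.33, 0.82 and 1.00), and none did against mock minus PNK.

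The remaining plus PNK pairs split the anticodons. Phe-GAA was lower in A4 than in A7 and E4: the A4 libraries stood at 32.7, 36.3 and 38.3 CPM and those of A7 at 49.6, 52.2 and 60.7 CPM. No A4 library reached the lowest A7 or E4 library. The log2 differences were -0.63 (SE 0.198, adjusted p = 0.0423) against A7, where 14.9% of features were called, and -0.72 (SE 0.198, adjusted p = 0.0303) against E4, where 10.5% were called. Tyr-GTA missed the threshold in both pairs (-0.08, adjusted p = 0.846, and -0.65, adjusted p = 0.0600), as did Trp-CCA (0.00 and -0.22). Both Phe-GAA calls rested on single libraries. Against A7 the call was lost without A4 library 1, 2 or 3 or A7 library 1 (adjusted p = 0.156, 0.0892, 0.0557 and 0.0819), and against E4 without A4 library 1 or 2 or E4 library 1 (0.118, 0.0727 and 0.0733). With the replicate number as a block the A7 difference had an adjusted p of 0.0576, and DESeq2 called neither.

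G8 was the low group for Tyr-GTA and Trp-CCA. Against G8 plus PNK, A4 was higher in Tyr-GTA by a log2 difference of 0.69 (SE 0.210, adjusted p = 0.0393) and in Trp-CCA by 0.77 (SE 0.242, adjusted p = 0.0433), in a comparison that called 13.8% of features. The lowest A4 library held 312 CPM of Tyr-GTA against 223 CPM in the highest G8 library. For Trp-CCA the groups met, since A4 ran from 20.3 to 32.1 CPM and 1 G8 library reached 22.5 CPM. A7 was higher than G8 in Tyr-GTA (0.76, SE 0.210, adjusted p = 0.0329) and in Phe-GAA (0.73, SE 0.199, adjusted p = 0.0308), where 8.27% of features were called. Trp-CCA in that pair was 0.77 (SE 0.241, adjusted p = 0.0598).

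With factors from miRNA rows, Tyr-GTA turned to -0.10 for A4 against G8 and to -0.22 for A7 against G8, and Phe-GAA to -0.27 for A7 against G8. The Tyr-GTA call for A4 against G8 was lost on leaving out any 1 of the 6 libraries (log2 0.58 to 0.74, adjusted p 0.0508 to 0.126). The Trp-CCA call there was lost without A4 library 2 (0.52, adjusted p = 0.218), A4 library 3 (0.84, 0.0620), G8 library 1 (0.62, 0.158) or G8 library 2 (0.68, 0.155), and with the replicate number as a block (adjusted p = 0.0510). For A7 against G8, the Tyr-GTA call was lost without A7 library 1, G8 library 1 or G8 library 2 (adjusted p = 0.114, 0.0693 and 0.0967), and the Phe-GAA call without A7 library 1 or G8 library 3 (0.0652 and 0.0730). Without G8 library 3 the Trp-CCA difference became 1.10 (adjusted p = 0.00523).

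Minus PNK, edgeR's joint test over the THP-1 groups called Trp-CCA, which was low in A4, and neither of the other 2 sums. Its A4 libraries stood at 2.98, 4.62 and 4.71 CPM, those of A7 at 10.4, 10.9 and 11.7 CPM and those of G8 at 6.37, 8.27 and 8.59 CPM. All 3 A4 libraries were below every library of the other 4 groups, whose lowest was an E4 library at 5.15 CPM. The counts behind this are small: 38 to 145 Trp-CCA counts per library minus PNK. The joint test over the 4 groups gave an adjusted p of 0.0231 by edgeR, with 25.7% of 1440 features called, among them 13 of the 45 other anticodon sums. A4 was lower than A7 by a log2 difference of -1.44 (SE 0.284, adjusted p = 0.0315, 5% of features called) and lower than G8 by -1.08 (SE 0.285, adjusted p = 0.0193, 25% called). The difference from E4 was -0.96 (SE 0.283, adjusted p = 0.179), in a pair where edgeR called 0.208% of features and none of the 3 sums. There 2 of the 3 sums had an unadjusted p under 0.05 and DESeq2 called 2.

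The A4 and A7 difference in Trp-CCA was no longer called without A4 library 1 or 2 or without any A7 library (log2 -1.55 to -1.24, adjusted p 0.0687 to 0.151), nor with the replicate block (adjusted p = 0.0631). The A4 and G8 difference was lost without A4 library 1, G8 library 1 or G8 library 2 (log2 -0.73, -0.84 and -1.04, adjusted p = 0.179, 0.106 and 0.0522). The joint test was lost without A4 library 1 or 2 or A7 library 1 or 2 (adjusted p = 0.104, 0.0662, 0.0631 and 0.0638), with low counts left unfiltered (0.797), on the highest copy alone (0.533) and with the block (0.0516). Phe-GAA and Tyr-GTA were not called in edgeR's joint test (adjusted p = 0.0754 and 0.149), but were without G8 library 3 (0.00544 and 0.0113), and DESeq2 called both (adjusted p = 7.72e-05 and 4.69e-05). Phe-GAA had its highest minus PNK values in A7, at 37.6, 42.3 and 45.0 CPM against 21.1, 21.4 and 24.9 CPM in A4 (log2 -0.90 for A4 against A7, SE 0.245, adjusted p = 0.0557). The 3 A7 libraries lay above all other libraries of the arm, whose highest was a G8 library at 32.4 CPM. No sum was called for A7 against E4 (0.0694% of features called) or A7 against G8 (25.8% called) minus PNK, with no unadjusted p under 0.05 and no call by DESeq2 in either pair.

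Against mock, Tyr-GTA was higher in 3 of the 4 THP-1 groups plus PNK. The mock libraries held 92.0, 158 and 159 CPM of Tyr-GTA, below every THP-1 library, whose lowest was a G8 library at 190 CPM. The log2 difference was 1.27 for A4 (SE 0.239, adjusted p = 0.00183, 10.4% of features called), 1.32 for A7 (SE 0.239, adjusted p = 0.00427, 4.48% called) and 1.86 for E4 (SE 0.243, adjusted p = 0.000209, 7.47% called). For G8 it was 0.61 (SE 0.237, adjusted p = 0.153), where 5.51% of features but none of the 3 sums was called, 1 sum had an unadjusted p under 0.05 and DESeq2 called none. The 3 Tyr-GTA calls were kept on leaving out any 1 library. With miRNA factors they were 0.58 (adjusted p = 0.175) for A4, 0.37 (0.364) for A7 and 1.00 (0.0222) for E4. Other classes moved the same way in these comparisons. Of the 45 other anticodon sums, 14, 8 and 16 were called higher than in mock in A4, A7 and E4 and none lower (median log2 differences 0.67, 0.56 and 0.73). Of 4 haematopoietic miRNAs tested, 3, 4 and 4 were called higher (medians 1.42, 1.82 and 1.84). The 1 epithelial or kidney miRNA tested was higher than in mock too (1.91, 3.10 and 2.38), and was called in A7 and E4. The part of these miRNAs in the tRNA differences was not tested.

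Phe-GAA was higher than in mock in A7 (log2 0.75, SE 0.204, adjusted p = 0.0387) and E4 (0.81, SE 0.204, adjusted p = 0.0204) plus PNK, and turned to -0.17 and -0.044 with miRNA factors. Mock held 23.1, 35.1 and 37.9 CPM of Phe-GAA, below all A7 and E4 libraries, and overlapped A4 (32.7 to 38.3 CPM) and G8 (27.6 to 37.2 CPM). The A7 call was lost without A7 library 1 or 3 or mock library 1 or 2 (adjusted p = 0.132, 0.0597, 0.104 and 0.0771) and with the replicate block (0.0609), and the E4 call without E4 library 1 (0.0668). Trp-CCA was not called against mock in any group. Minus PNK, none of the 3 sums was called in any of the 4 comparisons with mock. Over all features these called 0% for A4 and A7 (194 and 148 features had an unadjusted p under 0.05, and DESeq2 called 23 and 28), 0.54% for E4 and 21.1% for G8. The largest difference was Trp-CCA in A4, at -1.23 (SE 0.277, adjusted p = 0.155), and DESeq2 called it. By DESeq2, Tyr-GTA in E4 and both Tyr-GTA and Phe-GAA in G8 were called against mock as well.

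The make-up of the aromatic pool shifted with the PNK treatment. Trp-CCA rose from a median of 3.22% of the aromatic counts minus PNK (1.30% to 4.55%) to 6.17% plus PNK (4.19% to 10.6%), and Tyr-GTA fell from 85.2% (81.3% to 89.5%) to 81.6% (72.5% to 85.7%). These shares do not depend on library scaling. They are parts of the same total, so a fall in one goes with a rise elsewhere and their tests are not separate results. The Trp-CCA shift was 3.53 percentage points (adjusted p = 3.28125e-06) and that of Tyr-GTA -4.89 points (7.875e-06), by exact two-sided permutation of the arm labels within groups, with Benjamini-Hochberg adjustment over 21 tests. The unadjusted p for Trp-CCA, 6.25e-07, is the smallest these permutations can give. Phe-GAA rose by 1.35 points, which missed the threshold (adjusted p = 0.0693). In each group the lowest Trp-CCA share plus PNK exceeded the highest minus PNK, for example 5.57% against 2.20% in A4 and 8.49% against 4.55% in mock. Without mock the shifts were 3.06 points for Trp-CCA (exact adjusted p = 6.56e-05), -3.31 for Tyr-GTA (0.000158) and 0.24 for Phe-GAA (0.709).

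**Figure D3:**
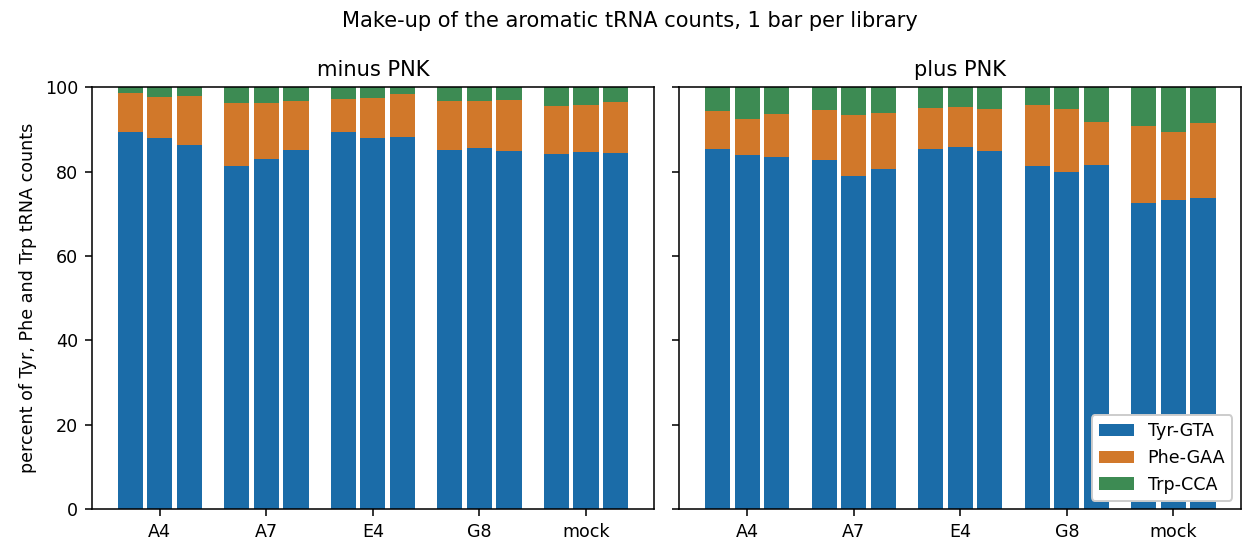
Percent of aromatic tRNA counts held by Tyr-GTA, Phe-GAA and Trp-CCA by group, minus and plus PNK. The mean Trp-CCA share of 3 libraries was larger plus PNK in every group, from 1.89% to 6.44% in A4 and from 4.08% to 9.46% in mock.

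Among the THP-1 groups the make-up differed as well. Minus PNK, the Tyr-GTA share was 86.2%, 88.0% and 89.3% in A4 and 88.1%, 88.3% and 89.5% in E4, against 81.3%, 82.9% and 85.1% in A7 and 84.9%, 85.2% and 85.7% in G8. A4 and E4 thus lay above A7 and G8 without overlap. The exact permutation test over the 4 groups gave an adjusted p of 0.00591. Since the shares are parts of the same total, a higher Tyr-GTA share leaves less for Phe-GAA and Trp-CCA together. The tests of the anticodons are therefore not separate results. The Phe-GAA share ran the other way, with means of 13.3% ± 1.69 (SD) in A7 and 11.5% ± 0.476 in G8 against 10.3% ± 1.19 in A4 and 9.07% ± 1.15 in E4 (exact adjusted p = 0.0152). It was lost without E4 library 1 (0.0539) and without G8 libraries 1 and 2 (0.0661). The Trp-CCA share was 1.89% ± 0.504 in A4, 2.32% ± 0.573 in E4, 3.07% to 3.30% in G8 and 3.52% ± 0.269 in A7 (exact adjusted p = 0.0129).

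Plus PNK, the Tyr-GTA share was again higher in A4 (84.4% ± 0.987) and E4 (85.4% ± 0.369) than in A7 (79.1%, 80.7% and 82.8%) and G8 (81.0% ± 0.877), with an exact adjusted p of 0.0138. The lowest A4 library was at 83.6% and the highest A7 library at 82.8%. Phe-GAA (adjusted p = 0.0612) and Trp-CCA (0.531) missed the threshold in the same exact permutation test. Without G8 library 3 the Phe-GAA share was called (exact adjusted p = 0.00409). Mock had the lowest Tyr-GTA share of the arm, at 72.5%, 73.2% and 73.8%, below all 12 THP-1 libraries.

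As a share of all nuclear tRNA counts, the aromatic tRNAs took a mean of 1.25% ± 0.309 (SD, n = 15) minus PNK and 0.396% ± 0.134 plus PNK. The lowest library minus PNK was at 0.588% and the highest plus PNK at 0.659%, so the arms overlapped slightly. The difference was -0.852 points (exact permutation test, adjusted p = 3.28125e-06), and it was -0.908 points without mock. Tyr-GTA gave -0.750 points of it, Phe-GAA -0.0906 and Trp-CCA -0.0113 (adjusted p = 0.0152 for Trp-CCA, exact). The Trp-CCA value was -0.00559 without G8 libraries 1 and 2, where it was not called (exact adjusted p = 0.112), and turned to 0.00292 with the highest copy. Nuclear tRNA as a whole took 0.989% to 4.15% of kept counts minus PNK and 6.42% to 13.4% plus PNK. The largest anticodon sum, Glu-CTC, moved with the arm: with Glu-CTC left out of the total, a choice made after seeing the data, the aromatic share was 1.69% minus PNK and 1.37% plus PNK, a difference of -0.324 points (exact adjusted p = 0.0113).

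**Figure D4:**
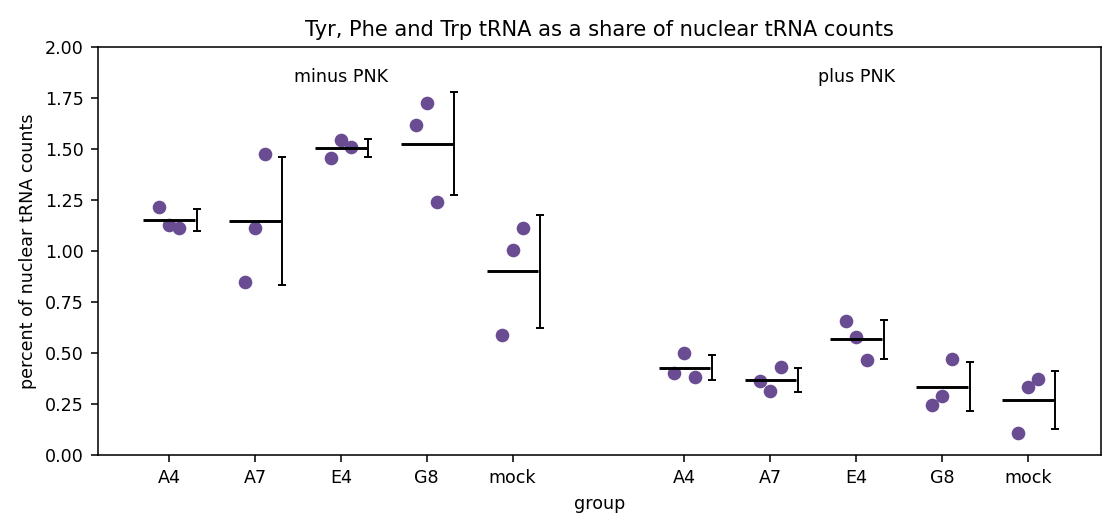
Percent of nuclear tRNA counts held by the aromatic tRNAs in each library, minus and plus PNK, by group. Means were 1.25% minus PNK and 0.396% plus PNK, and within every group all plus PNK libraries lie below all minus PNK libraries.

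Among the 4 THP-1 groups, the aromatic share of nuclear tRNA did not pass the threshold minus PNK (adjusted p = 0.105) or plus PNK (0.0716) in the exact permutation test. Group means minus PNK were 1.15% in A4 and in A7, 1.51% in E4 and 1.53% in G8, and plus PNK 0.429%, 0.371%, 0.568% and 0.337% in the same order. It was called minus PNK without A7 library 3 (exact adjusted p = 0.0258) or G8 library 3 (0.0419), and plus PNK without E4 library 3 (0.0469) or G8 library 3 (0.0148). The Trp-CCA share was called minus PNK (exact adjusted p = 0.0414), with 0.0216% of nuclear tRNA counts in A4, 0.0349% in E4, 0.0400% in A7 and 0.0491% in G8. That call was lost on leaving out 8 of the 12 libraries in turn: A4 library 1, 2 or 3 (0.110, 0.0685 and 0.0699), A7 library 2 (0.0612), E4 library 1 or 2 (0.0541 and 0.0561) and G8 library 1 or 2 (0.0784 and 0.0790).

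On the scale of all features, the size of the arm difference could not be separated from library scaling. With TMM factors over both arms, plus against minus PNK was -2.47 for Tyr-GTA, -2.25 for Phe-GAA and -1.25 for Trp-CCA on the log2 scale, in a comparison that called 96% of features around a median of 3.36. With library totals alone these became 0.29, 0.50 and 1.52. No direction is therefore given for them. The difference between the arms was not called to depend on the group for any of the 3 sums (adjusted p = 0.440 for Tyr-GTA, 0.773 for Phe-GAA and 0.0664 for Trp-CCA by edgeR, 0.583% of features called). There 2 of the 3 had an unadjusted p under 0.05 and DESeq2 called none. With same-numbered libraries as a block, the Trp-CCA interaction had an adjusted p of 0.0379, and without G8 library 3 of the minus PNK arm 0.00685.

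The copies of each anticodon contributed very unequally. TRY-GTA2-1, on the plus strand at chr2:27050782-27050870, held 781 to 2101 counts per library minus PNK (median 1395) and 240 to 1035 plus PNK (median 636). TRY-GTA5-1 held 170 to 449 counts (median 262) minus PNK and 158 to 1271 (median 574) plus PNK, and TRY-GTA5-3 held 141 to 621 and 45 to 461. At the other end, tRNA-Tyr-GTA-9-1 held 0 to 2 counts in either arm. For Phe, TRF-GAA1-5 ranged from 56 to 277 counts minus PNK and 32 to 86 plus PNK, TRF-GAA1-4 from 20 to 94 and 25 to 82, TRF-GAA2-1 from 15 to 40 and 37 to 137, and TRF-GAA6-1 from 0 to 3 in either arm. For Trp, TRW-CCA1-1 ranged from 7 to 23 counts minus PNK and 15 to 100 plus PNK, TRW-CCA2-1 from 7 to 37 and 16 to 72, TRW-CCA4-1 from 8 to 57 and 8 to 60, and TRW-CCA5-1 from 0 to 3 and 0 to 7. In all, 8 of the 33 genes averaged under 5 counts.

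Genes annotated with the same mature sequence also differed, so the rows do not split reads evenly. The 6 genes TRF-GAA1-1 to TRF-GAA1-6 averaged from 15.3 to 134 counts minus PNK and from 10.7 to 55.3 plus PNK. The 5 genes TRY-GTA5-1 to TRY-GTA5-5 averaged from 13.7 to 315 counts minus PNK and from 11.3 to 648 plus PNK. TRW-CCA3-1, TRW-CCA3-2 and TRW-CCA3-3 averaged from 1.07 to 17.5 and from 1.93 to 16.2. No source used here says where the authors' alignment placed a read that matches several copies, so values of single copies are uncertain, and 16 of the 33 genes overlap another row of the table.

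The leading copies changed place with the PNK treatment. TRY-GTA2-1 held 54.3% of the Tyr-GTA counts minus PNK (39.6% to 69.9%) and 30.4% plus PNK (19.3% to 47.6%), a difference of -23.9 points (exact permutation test within groups, adjusted p = 1.125e-05 over 12 tests chosen after seeing the data). TRF-GAA1-5 held 38.6% of the Phe-GAA counts minus PNK and 18.5% plus PNK (-20.1 points, exact adjusted p = 7.5e-06). TRW-CCA1-1 went the other way, from 17.1% to 36.6% of the Trp-CCA counts (19.5 points, exact adjusted p = 3e-05). Without mock the differences were -23.3, -17.8 and 17.7 points. Each copy was picked for the highest mean count over both arms together, and each led in only 1 arm. TRW-CCA1-1 averaged 59.9 counts plus PNK but 13.9 minus PNK, below TRW-CCA4-1 (31.7). TRF-GAA1-5 averaged 134 counts minus PNK but 55.3 plus PNK, below TRF-GAA2-1 (75.1). The choice thus drew on the arms compared, so these p-values between arms cannot count as separate evidence of a shift. The TRF-GAA1-5 share also differed among the THP-1 groups minus PNK (exact adjusted p = 0.00994), at 46.5%, 48.2% and 48.4% in A7 and 23.2%, 27.6% and 36.3% in G8. A4 (32.6% to 40.2%) and E4 (31.3% to 35.8%) lay below every A7 library.

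**Figure D5:**
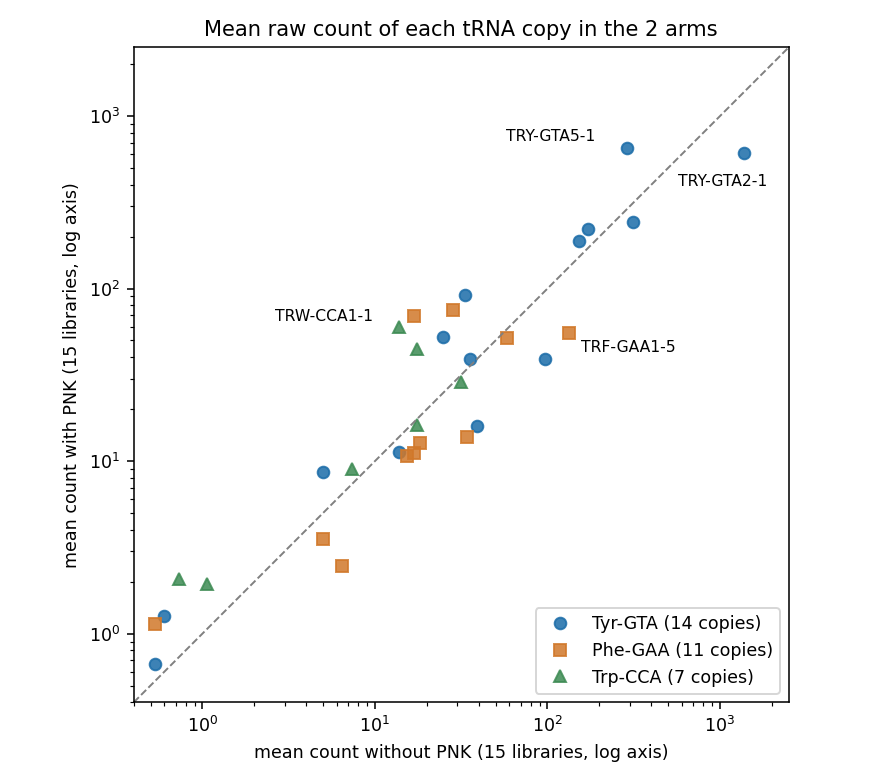
Mean raw count of each copy of Tyr-GTA, Phe-GAA and Trp-CCA, minus against plus PNK, not scaled for library size. TRY-GTA2-1 (54.3% of the Tyr-GTA counts minus PNK, 30.4% plus PNK) and TRF-GAA1-5 lie on the minus PNK side of the line of equal raw counts and TRW-CCA1-1 on the plus PNK side. Kept totals were larger minus PNK, so the line does not mark equal levels.

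Tested 1 by 1, most of the copies called for E4 against G8 plus PNK were Tyr copies. These tests, and the single copies named from here on, were chosen after their values were seen. Of the 25 copies tested, 13 were called higher in E4 and none lower, with 10.9% of all features called: 11 of 12 Tyr copies, TRF-GAA2-1 (1.30) and TRW-CCA1-1 (1.82). Copies of 1 anticodon can share reads, and TRY-GTA5-1 to TRY-GTA5-5 are annotated with the same mature sequence. The number of copies called therefore overstates the separate results. The Tyr copy not called was TRY-GTA2-1 (log2 0.75, SE 0.316, adjusted p = 0.143 by edgeR), with 781, 684 and 651 counts in E4 and 373, 240 and 636 in G8. It was the most abundant over both arms together (mean 997 counts). Plus PNK its mean of 609 counts was below that of TRY-GTA5-1 (648).

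A pair of Tyr genes on chromosome 14 differed between A7 and E4, where the sums did not. TRY-GTA4-1, on the minus strand at chr14:20657464-20657557, held 140, 115 and 155 counts in E4 plus PNK and 38, 14 and 24 in A7. In CPM this was 19.9, 14.8 and 21.1 against 5.30, 1.87 and 2.97, with A4 between them at 10.5, 8.08 and 8.28 and with G8 (2.41 to 3.79) and mock (1.22 to 3.32) near A7. The E4 libraries lay above all other libraries of the arm. The log2 difference of A7 against E4 was -2.49 (SE 0.277, adjusted p = 0.000911 by edgeR over 8218 features, of which 5 or 0.0608% were called), and it was called on leaving out any 1 library (-2.97 to -2.22) and with miRNA factors. TRY-GTA5-5, on the plus strand at chr14:20683273-20683361, held 560, 479 and 377 counts in E4 and 195, 125 and 222 in A7. Its CPM were 79.7, 61.7 and 51.2 in E4, 46.6, 38.5 and 35.8 in A4, 27.2, 16.7 and 27.5 in A7, 14.3 to 19.0 in G8 and 8.97 to 10.2 in mock. Those 5 groups did not overlap except A7 and G8. A7 against E4 was -1.47 (SE 0.220, adjusted p = 0.0120), lost without A7 library 2 or 3 or E4 library 1 or 2 (adjusted p = 0.0774, 0.0696, 0.115 and 0.0828).

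Minus PNK, 3 of the 24 copies tested (12.5%) were called for A4 against A7, all lower in A4, where 5.2% of all features were called. TRW-CCA4-1 and TRF-GAA1-5 were among them. TRW-CCA4-1 held 10, 8 and 8 counts in A4 and 56, 56 and 57 in A7, with 17 to 40 in E4, 14 to 35 in G8 and 31 to 39 in mock, so that A4 was the lowest group and A7 the highest without overlap. The log2 difference of A4 against A7 was -2.48 (SE 0.378, adjusted p = 0.0141 by edgeR, 5.2% of features called). It was lost without A4 library 1 or 2 or A7 library 1 or 2 (adjusted p = 0.106, 0.102, 0.0786 and 0.0683). TRF-GAA1-5 held 89, 88 and 100 counts in A4 and 277, 245 and 244 in A7, against 56 to 159 in the other 3 groups (A4 against A7 -1.26, SE 0.272, adjusted p = 0.0354). That call was lost without A4 library 1 or 2 (0.176 and 0.144) or A7 library 1, 2 or 3 (0.139, 0.152 and 0.0671), and with the replicate block (0.0603).

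Other genes of the same polymerase give the setting for these values. Of the 45 other nuclear anticodon sums tested, 20 were called higher and none lower in E4 than in G8 plus PNK, with a median log2 difference of 0.93 against 0.07 over all features. That comparison called 10.9% of all features. Lys-TTT (2.08), Leu-CAA (1.91) and Thr-TGT (1.37) had the lowest adjusted p. Against G8 plus PNK, 19 were higher and none lower in A4 (median 0.79 against -0.04 over all features), and 12 higher and none lower in A7 (0.69 against 0.04). Over all features these pairs called 13.8% for A4 and 8.27% for A7. Minus PNK, 5 of the 45 were lower and none higher in A4 than in A7 (median -0.74 against 0.06), where 5% of all features were called. The Tyr-GTA difference of 1.33 in E4 against G8 lies above the median of the other sums, the Trp-CCA difference of 1.00 near it and the Phe-GAA difference of 0.82 below it.

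Other Pol III transcripts were called in both directions. Of 40 tested in E4 against G8 plus PNK, none was called higher and 9 lower, with a median log2 difference of 0.66 against 0.07 over all features. That comparison called 10.9% of all features. The 9 were all copies of the spliceosomal U6 RNA gene, among them RNU6-7 (-1.56, SE 0.242, adjusted p = 0.00118) and an RNU6-1 copy on chromosome 14 (-1.51). U6 genes use a promoter upstream of the gene, unlike tRNA genes. In A4 against G8, 23 were higher and 10 lower (median 1.43 against -0.04), where 13.8% of all features were called. The vault RNA gene VTRNA1-3 was at 2.76 (SE 0.620, adjusted p = 0.00705 by edgeR). RN7SL2, an RNA of the signal recognition particle, was at 2.55 (SE 0.626, adjusted p = 0.0122) and RNU6-7 at -1.14. Many of these rows are near-identical copies that share reads, such as the rows of the ribosomal RNA gene RNA5S8, so their number overstates the separate genes.

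The mitochondrial tRNAs of the same amino acids, which a different polymerase transcribes, were also higher in E4 than in G8 plus PNK. MT-TF, for Phe, differed by 1.09 (SE 0.244, adjusted p = 0.00974) and MT-TW, for Trp, by 1.39 (SE 0.325, adjusted p = 0.0122). They were the 2 of this list tested, in a comparison that called 10.9% of all features, and MT-TY was not analysed here. In A4 against G8 the differences were 0.98 (SE 0.244, adjusted p = 0.0133) for MT-TF and 1.06 (SE 0.323, adjusted p = 0.0376) for MT-TW. Haematopoietic miRNAs moved with these comparisons too: all 4 tested were higher in E4 than in G8 plus PNK (median 1.89), with a median summed level of 313 CPM of kept counts in E4 (309 to 346) and 30.5 in G8 (highest 133). The 1 epithelial or kidney miRNA tested was called higher as well, by 2.51 in E4 and 3.19 in A7 against G8. Their part in the tRNA differences was not tested.

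By pattern over the 10 groups and arms, the other anticodon sums nearest to Tyr-GTA were Gly-CCC, Arg-ACG and Cys-GCA, with a root mean square difference of centred log2 CPM of 0.28, 0.32 and 0.34 against a median of 0.69 over the 45 sums. Nearest to Phe-GAA were Ile-AAT (0.26), Arg-ACG (0.30) and Ala-AGC (0.33), and nearest to Trp-CCA were Gln-TTG (0.31), Leu-CAG (0.34) and Glu-TTC (0.38). The scale was TMM factors over both arms, so the difference between arms (median log2 -2.38 over the other sums) enters these values. Nearness in pattern among the groups alone was not tested.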

How the data were processed

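Small RNA was sequenced in 2 PNK arms. The authors deposited a table of read counts per annotated row, made with Bowtie2 2.3.5.1, SAMtools 1.9 and bedtools 2.28.0 on GRCh38, per the submitters' processing notes. The counting tool, its use of strand and its treatment of reads with several alignments are not given in the sources used here. Since 1 read could count in several overlapping rows, a row was dropped where it overlapped one already kept (85907 of 175946 kept). Rows were taken in a fixed order: nuclear tRNA, then other small RNAs (longest first), then the rest (shortest first). All 33 aromatic tRNA rows were thus kept, with any reads they shared with dropped rows. Nuclear tRNA rows were then summed by anticodon, giving 85463 features. Library totals, TMM factors and filterByExpr preceded edgeR 4.0.16's quasi-likelihood test (R 4.3.3, prior count 2 for log CPM), with Benjamini-Hochberg adjustment over all features tested (threshold 0.05). DESeq2 1.42.0, other scalings, filters, the highest copy, a replicate block and left-out libraries were alternatives. The fits among THP-1 groups used 12 libraries of an arm, those with mock 15, and the arm tests 30. Shares were tested by exact permutation in Python 3.11.15. On simulated counts, the A4 and A7 comparison recovered 56% of 4-fold changes minus PNK and 97% plus PNK, and 7% and 32% of 2-fold changes. The members and lists were chosen with earlier results of these data known. Always named were the 3 sums and, by mean count, the top 3 and the lowest copy of each. Same-numbered libraries deviated together (all 3 correlations over 0.1) in 2 of 20 pairs of groups within an arm. Between the arms they did so in 0 of 5 groups. Numbers were therefore not taken to pair libraries in the main fits, although across arms the own number correlated best in 20 of 30 cases.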

Additional observations from a re-analysis of the deposited data

How the results depend on the processing

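Of 1971 alternative values for 109 results, most kept their direction and side of the threshold; a change of sign with neither value called was counted as no change. All joint and interaction values below are adjusted p. Low counts limit Trp-CCA, and all directions rest on library scaling; the cause of each change was not tested. In the joint test minus PNK, Tyr-GTA became called with library totals (0.0414), miRNA factors (0.0207), DESeq2 (4.69e-05) and without G8 libraries 1 and 2 (0.0263). Phe-GAA did with DESeq2 size factors (0.0495), totals (0.0257), miRNA factors (0.0138), DESeq2 (7.72e-05), the highest copy (0.0198) and without those G8 libraries (0.0147). Trp-CCA was lost with no filter (0.797), the highest copy (0.533) and the replicate block (0.0516). Plus PNK, miRNA factors gave 0.345 for Tyr-GTA, 0.194 for Phe-GAA and 0.899 for Trp-CCA, the highest copy gave 0.109 for Tyr-GTA, and Trp-CCA was 0.114 with totals and 0.464 without G8 libraries 1 and 2. The Trp-CCA interaction was 0.0495 with the highest copy, 0.0149 with every deposited row, 0.0379 with the block and 0.0304 without those G8 libraries.

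With miRNA factors, log2 differences reversed minus PNK for A7 against G8 (Tyr-GTA -1.90, Phe-GAA -1.64, Trp-CCA -1.74), E4 against G8 (Tyr-GTA -1.74) and G8 against mock (Trp-CCA 1.69), and plus PNK for A4 against G8 (Tyr-GTA -0.10), A7 against G8 (Tyr-GTA -0.22, Phe-GAA -0.27), E4 against G8 (Phe-GAA -0.19) and Phe-GAA in A7 and E4 against mock (-0.17 and -0.044). Plus against minus PNK reversed for Tyr-GTA (0.29 with totals, 4.08 with miRNA factors), Phe-GAA (0.50 and 4.32) and Trp-CCA (1.52 and 5.31, and 0.49 with DESeq2 size factors and 0.48 with DESeq2), and Trp-CCA was -0.089 with the highest copy.

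For shares of aromatic counts among groups, the highest copy gave 0.666 for Tyr-GTA plus PNK and 0.672 for Trp-CCA minus PNK. Without G8 libraries 1 and 2, Tyr-GTA plus PNK was 0.0503 and Phe-GAA 0.0661 minus and 0.0338 plus PNK. For shares of nuclear tRNA, the highest copy gave 0.0192 for Phe-GAA minus PNK, 0.374 minus and 0.0192 plus PNK for Trp-CCA, and 0.00292 points for Trp-CCA between arms, and leaving out those G8 libraries 0.140 for Trp-CCA minus PNK, -0.00559 points (exact adjusted p = 0.112) between arms and 0.0484 for the TRY-GTA2-1 share minus PNK.

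Leaving out 1 library at a time, the joint tests ranged minus PNK from 0.0113 to 0.318 (Tyr-GTA), 0.00544 to 0.212 (Phe-GAA) and 0.00268 to 0.104 (Trp-CCA), and for Trp-CCA plus PNK from 0.00322 to 0.139 and in the interaction from 0.00685 to 0.415. The Phe-GAA share of aromatic counts ranged from 0.00643 to 0.0539 minus and 0.00409 to 0.0940 plus PNK and from 1.18 to 1.66 points between arms. Shares of nuclear tRNA ranged, minus and plus PNK, from 0.0258 to 0.193 and 0.0148 to 0.213 (all aromatic), 0.0258 to 0.179 and 0.0128 to 0.149 (Tyr-GTA), 0.0419 to 0.155 and 0.0462 to 0.213 (Phe-GAA), and 0.0216 to 0.110 minus PNK (Trp-CCA). Copy shares plus PNK ranged from 0.0282 to 0.172 (TRF-GAA1-5) and 0.0260 to 0.233 (TRW-CCA1-1).

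The replicate block changed no other call than those given here and for A4 against A7 (Trp-CCA, 0.0631, and TRF-GAA1-5, 0.0603, minus PNK, and Phe-GAA plus PNK, 0.0576), A4 against G8 (Trp-CCA plus PNK, 0.0510) and A7 against mock (Phe-GAA plus PNK, 0.0609). Each library correlated best with its own number in 17 of 60 cases minus PNK, 21 of 60 plus PNK and 20 of 30 across arms. Each case was a choice among 3 libraries, so across arms the own number was best more often than an even choice would give. Pairing of the arms by number was thus not settled, and the Trp-CCA interaction was called only with the block among these 2 fits. Features called in the joint test minus PNK, 370, were 692 with DESeq2, 719 with miRNA factors, 1078 with every row, 175 with the block and 93 to 1033 with 1 library left out. Plus PNK, 1804 became 4328 with miRNA factors and 11445 with every row. In the interaction, 63 became 12 with DESeq2 size factors, 14 with totals, 169 with DESeq2, 559 with every row, 155 with no filter, 246 with the block, 152 without G8 libraries 1 and 2 and 5 to 400 with 1 library left out. Between arms, 10375 became 41548 with every row and 19056 with no filter.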
